A study of Xenopus laevis with 11 samples.

Results

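The neural border was followed from the open neural plate to the rising neural folds in Xenopus laevis, an allotetraploid frog, by comparing arrays of neural border tissue at stage 18 with arrays of neural border tissue at stage 14. The 5 arrays were chosen by their labelled tissue and stage, 2 at stage 18 and 3 at stage 14, out of 11 arrays in all. The other arrays held stage 12 neural plate (n = 2), stage 18 anterior neural fold (n = 3) and stage 14 animal cap (n = 1). They entered the same linear model, so that the spread of each probe set rested on more replicates, and served as reference levels. No allele, transgene or added agent is named for any group. All tissue was cut from embryos by hand, so each array reads a mixture of the cells in a piece. Arrays of a group are labelled as biological replicates, with no clutch, pool or number of embryos named, so a p-value covers the spread between the arrays only, and that spread could be technical.

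The neural border is the strip of ectoderm between the neural plate and the future epidermis. Wnt, BMP and FGF signals turn on border transcription factors of the Pax, Zic, Msx and Tfap2 families there. These in turn activate neural crest specifiers such as Snai2, Sox9, Foxd3 and Sox10. As the folds rise, the crest prepares to leave the epithelium and migrate, while the same strip also gives rise to dorsal neural tube, sensory neurons, hatching gland and epidermis.

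Levels are log2 intensities of Affymetrix probe sets, and a difference of 1 is a 2-fold difference. They are compared between arrays of 1 probe set and never between probe sets. Probe sets that should bind no frog transcript set a background level of 3.72. Array pairs correlated at 0.983 to 0.993 within the stage 14 group and at 0.985 within the stage 18 group. The border and crest markers were above background on average at both stages, though snai2.S only just at stage 14, at 4.46, 3.49 and 3.99. The tissue also held epidermis, since the intelectin itln1.L and the keratin krt12.4.L stood at 8.38 to 10.02 on the stage 14 arrays. The muscle regulators myod1, myf5 and tbx6, the endoderm regulator sox17a and the notochord regulator tbxt stayed at or below 3.72 on all 5 arrays. Other markers of those tissues were above it. The endoderm marker a2m.S read 5.90 to 7.37 and the notochord markers not.L and not.S read 4.03 to 6.18 over the same 5 arrays, none of which passed the test between the stages. A2m.S was higher still in the stage 18 anterior neural fold, at an average of 9.02, and whether it marked endoderm here was not tested. The part of such tissues in the results was not tested.

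Of 15491 probe sets, 1016 (6.56%) differed between the stages at an adjusted p under 0.05 in limma. At stage 18, 585 (3.78%) were higher and 431 (2.78%) were lower. Of these, 358 (2.31%) differed at least 2-fold, 247 of them higher at stage 18. Levels of the 2 stages did not overlap for any of the 1016, and did not overlap for 5621 (36.3%) of all probe sets. Centring each array on its median shifted all changes by 0.05 and turned the split to 501 higher and 574 lower. The count fell to 458 without stage 14 replicate 3, to 673 without stage 18 replicate 1 and to 672 without stage 18 replicate 2. Where a gene below is given with no remark on single arrays, its call held when any 1 of the 5 border arrays was left out. That does not cover a fit to the 5 border arrays alone, which lost 73 of the 123 called probe sets followed through the alternatives, among them those of ets1.L, zic2.S, cyp26a1.S, mdh2.L, serpine2.L and snap25.L. With 1 probe set per gene, 244 of 6505 genes (3.75%) were higher, 242 (3.72%) were lower, and the median log2 change was -0.03. The counts for gene groups below are read against those shares.

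**Figure D1:**
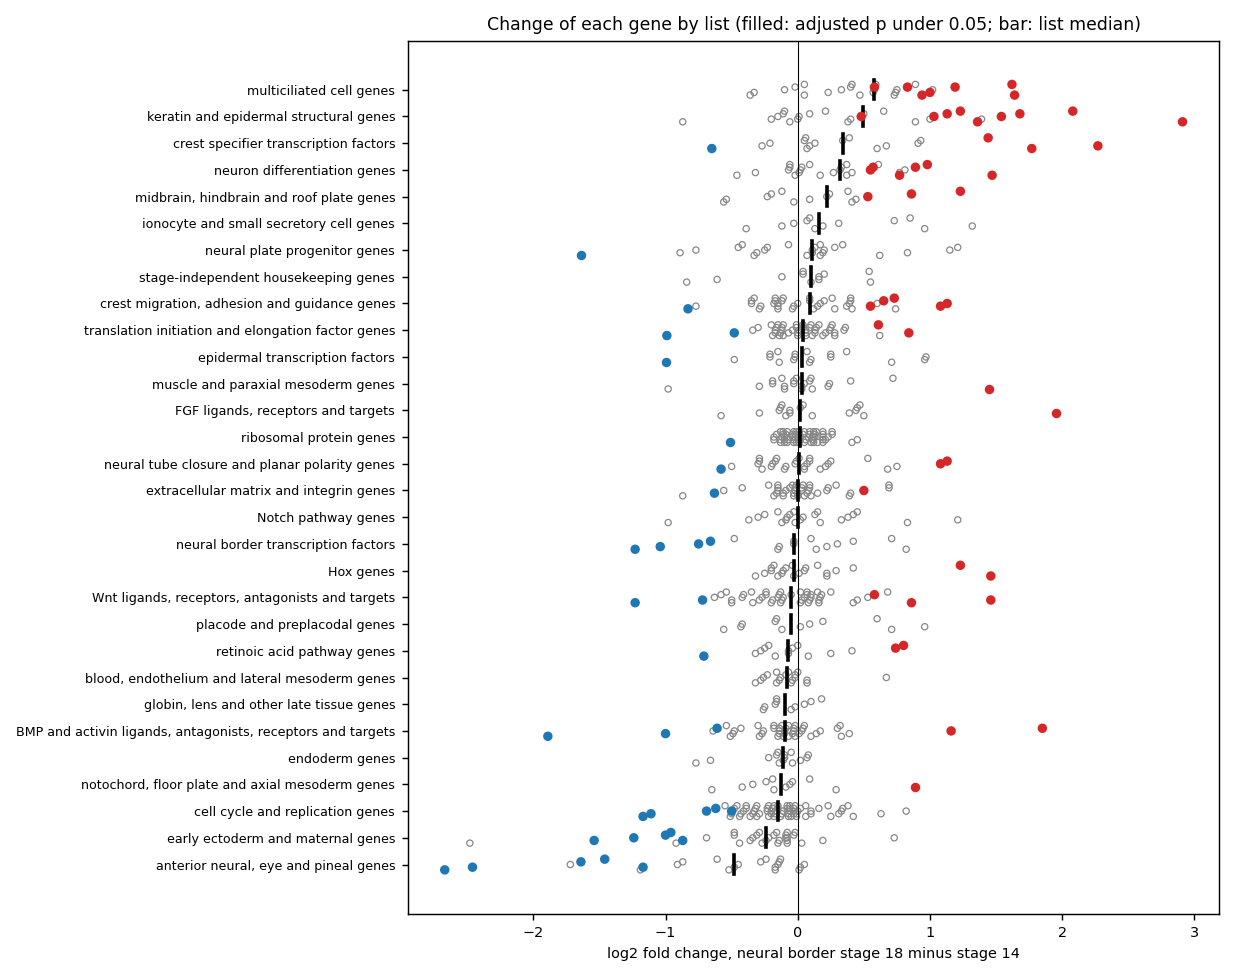
Log2 fold change of each measured gene in the lists with 10 or more measured genes, stage 18 minus stage 14 neural border, 1 probe set per gene. Red and blue points passed an adjusted p of 0.05, grey rings did not, and black bars are list medians. The multiciliated cell list has a median of 0.58 and the anterior neural list a median of -0.48.

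Among the neural crest specifiers, the gene that identifies the established crest, sox10.L, more than tripled. Its 3 stage 14 arrays read 5.54, 5.31 and 4.89, and its 2 stage 18 arrays read 7.25 and 6.78. The stages did not overlap, and the log2 change was 1.77 ± 0.23 (SE, adjusted p = 0.00324), or 3.41-fold. At stage 18 it was 3.92 log2 units above the anterior neural fold (adjusted p = 7.8e-06), where it averaged 3.09, a level in the background. The Myc family gene mycn.S, a regulator of growth and proliferation, read 6.19, 5.85 and 5.30 at stage 14 and 8.30 and 7.80 at stage 18. It rose by 2.27 ± 0.35 (adjusted p = 0.00694) and was the crest specifier with the largest change. The Ets family factor ets1.L, known for its role in cranial crest migration, read 5.97, 5.19 and 6.0 and then 7.14 and 7.17. It rose by 1.44 ± 0.25 (adjusted p = 0.00989), and it too was higher in the stage 18 border than in the anterior fold, by 2.40 (adjusted p = 0.000337).

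The earlier-acting crest specifiers given here did not pass the test, apart from snai2.S. Sox8 and twist1 were not measured. Snai2.L, a zinc finger repressor of epithelial genes, read 8.14, 8.08 and 7.98 at stage 14 and 8.05 and 8.21 at stage 18. The stages overlapped, with a change of 0.06 and a 95% interval of -0.91 to 1.04. The interval uses the spread of replicates in all groups, while the 5 border arrays of snai2.L lay within 7.98 to 8.21. Its homeolog snai2.S, much nearer to background, was called higher by 0.97 (adjusted p = 0.0372), a call lost without stage 14 replicate 3 or either stage 18 array (adjusted p up to 0.133). Whether the homeologs differed was tested directly and did not pass (adjusted p = 0.276). Sox9.S, an SoxE factor active in premigratory crest, changed by 0.07 (interval -0.58 to 0.71). Tfap2a.L, which acts in border, crest and epidermis, changed by 0.09 (interval -0.22 to 0.40). Foxd3.S, a forkhead repressor of early crest, changed by 0.34 (interval -0.31 to 0.99). Its homeolog foxd3.L changed by 0.56 (adjusted p = 0.55), which did not pass although the stages did not overlap. Snai1.S and tfap2b.L had larger estimates, 0.91 (adjusted p = 0.0742) and 0.93 (adjusted p = 0.0622), which did not pass although the stages did not overlap for either.

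In the list of crest specifiers as a whole, 17 genes were measured. Of these, 3 were higher, 1 was lower and 13 did not pass, and the median change was 0.34. The lower one, the E protein tcf12.L, stood near background at both stages and changed by -0.65 (adjusted p = 0.0279). That call was lost without stage 18 replicate 1 (adjusted p = 0.143) or any 1 of the stage 14 arrays (0.0558 to 0.0789).

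**Figure D2:**
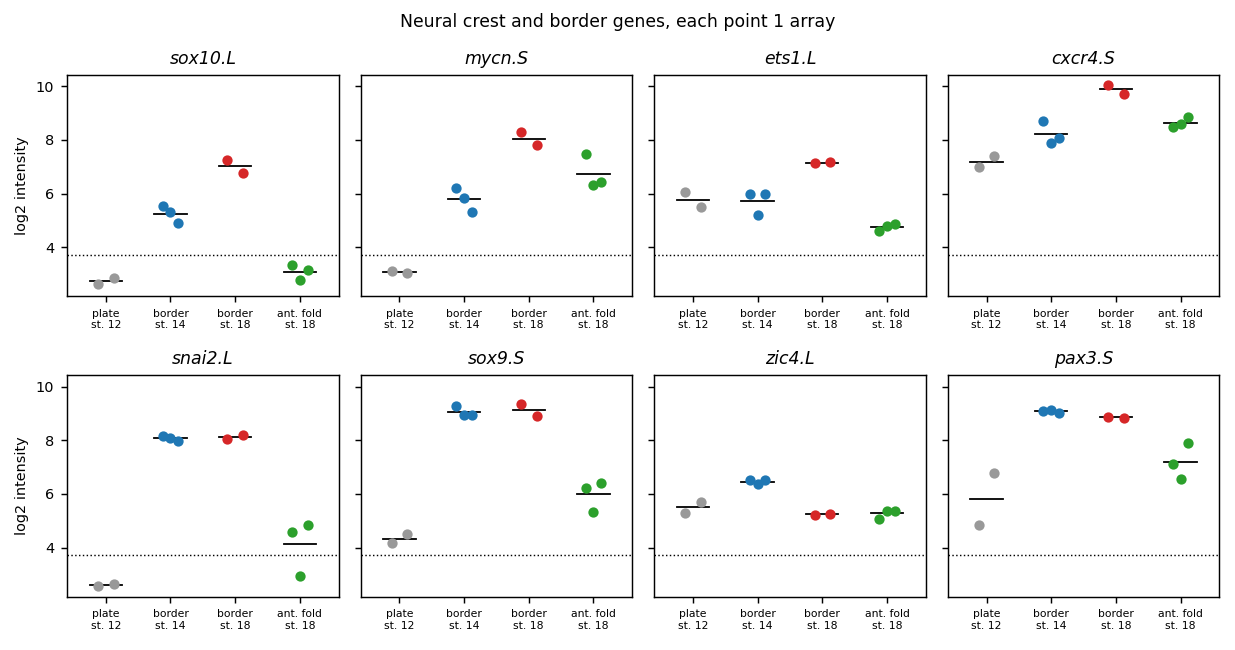
Log2 intensity (y axis) of 8 neural crest and border genes on each array of 4 groups, with black bars at group means and a dotted line at the background level of 3.72. Sox10.L, mycn.S, ets1.L and cxcr4.S were higher in the stage 18 border than at stage 14 on every array, zic4.L was lower, and snai2.L and sox9.S overlapped.

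Zic genes, which encode zinc finger factors of the early border and neural plate, accounted for every call in the border list. The list had 16 measured genes, of which 0 were higher and 4 were lower at an adjusted p under 0.05, with a median change of -0.03. Zic4.L read 6.51, 6.35 and 6.52 at stage 14 and 5.23 and 5.24 at stage 18, a fall with no overlap. It fell by 1.23 on the log2 scale (adjusted p = 0.00262), or 2.34-fold. Zic2.S fell by 0.75 (adjusted p = 0.00533). Its homeolog zic2.L changed by -0.23 (adjusted p = 0.272), and the difference between the copies did not pass (adjusted p = 0.0688). The brighter of 2 probe sets for zic1.S read 9.55, 9.63 and 9.53 and then 8.90 and 8.92, and fell by 0.66 (adjusted p = 0.0094). Zic5.S fell by 1.04 (adjusted p = 0.0269), but not without stage 14 replicate 3, stage 18 replicate 1 or stage 18 replicate 2 (adjusted p of 0.0703, 0.12 and 0.0692).

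The remaining border factors did not pass. Msx1.L, a homeobox target of BMP signalling, changed by -0.14 (interval -0.62 to 0.35). Pax3.S, the paired box factor that works with Zic1 at the border, read 9.08, 9.14 and 9.01 and then 8.87 and 8.83. The stages of pax3.S did not overlap, but the change was -0.22 with an interval of -1.34 to 0.89. Probe sets of its homeolog pax3.L disagreed in sign, with changes from -0.44 to 0.82 and none past the test.

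Genes of crest adhesion, guidance and migration gave calls in both directions. Of 38 measured, 5 were higher, 1 was lower and 32 did not pass, with a median of 0.09. With 1 probe set per gene, the largest change was in cdh1.S, the epithelial cadherin, which read 4.25, 3.81 and 4.27 and then 4.99 and 5.49, a rise of 1.13 (adjusted p = 0.0117). N-cadherin, cdh2.L, which marks neural tissue and early crest, rose by 1.08 (adjusted p = 0.0406). Its homeolog cdh2.S changed by 0.13 (adjusted p = 0.841), and the difference between the copies did not pass. Robo1.L, a receptor for Slit guidance cues, rose by 0.73 (adjusted p = 0.0174), mmp14.L, a membrane-bound matrix metalloprotease, by 0.65 (adjusted p = 0.0124), and nrp1.L, a semaphorin and VEGF co-receptor, by 0.55 (adjusted p = 0.0498). Of these 5 calls, that of cdh1.S was lost without stage 18 replicate 2 (adjusted p = 0.0677) and that of mmp14.L without either stage 18 array (0.05 and 0.053). Robo1.L was lost without stage 14 replicate 3, stage 18 replicate 1 or stage 18 replicate 2 (0.0635 to 0.0715). The call of cdh2.L was lost without any 1 of the 5 border arrays (0.0607 to 0.194), and that of nrp1.L without all but stage 18 replicate 2 (0.0556 to 0.266).

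The chemokine receptor cxcr4, which guides collective crest migration toward Sdf1, changed in 1 homeolog. Cxcr4.S read 8.72, 7.90 and 8.08 at stage 14 and 10.06 and 9.71 at stage 18, a rise of 1.65 ± 0.24 (adjusted p = 0.00541) with no overlap. Cxcr4.L changed by 0.37 (adjusted p = 0.176), and the difference between the homeologs itself passed (-1.28 ± 0.28, L minus S, adjusted p = 0.0189). That difference was lost without stage 14 replicate 3 or either stage 18 array (adjusted p of 0.0782, 0.118 and 0.0693). For the guidance ligand slit1.S, 1 of 3 probe sets passed, with a rise of 1.50 ± 0.18 (adjusted p = 0.00302) from a level in the background, while the others changed by 0.60 (adjusted p = 0.0738) and 0.29 (adjusted p = 0.188).

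Among genes of the anterior neural plate, eye and pineal organ, every call was a fall. Of 23 measured, 0 were higher, 5 were lower and 18 did not pass, and the median change of -0.48 was the lowest of the lists with 10 or more measured genes. The photoreceptor and pineal homeobox factor crx.L showed the largest fall of any named gene. It read 7.74, 7.78 and 7.57 at stage 14 and 5.13 and 4.93 at stage 18. The fall of 2.67 ± 0.17 (SE, adjusted p = 0.000504) was 6.35-fold, and its homeolog crx.S fell by 1.98 (adjusted p = 0.00166). The LIM homeobox factor lhx5.S of the forebrain read 5.00, 4.74 and 5.19 and then 3.66 and 3.38, reaching background, a fall of 1.46 (adjusted p = 0.00356).

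Otx2, a head and forebrain homeobox factor, fell in both copies. Otx2.S read 8.06, 7.89 and 7.95 and then 6.66 and 5.99, a fall of 1.64 (adjusted p = 0.0142), and otx2.L fell by 1.46 (adjusted p = 0.0433). The forebrain zinc finger factor fezf2.L fell by 2.46 (adjusted p = 0.0264), and the eye field factor six3.L by 1.17 (adjusted p = 0.0497). These 4 calls were less secure than those of crx and lhx5. Otx2.S was lost without stage 18 replicate 2 (adjusted p = 0.082), otx2.L and six3.L without any 1 of the 5 border arrays (up to 0.212 and 0.163), and fezf2.L without all but stage 14 replicate 2 (0.0596 to 0.109).

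The stage 18 anterior neural fold, which shares the stage 18 border arrays as its comparator here, held these genes at higher levels. Fezf2.L averaged 9.02 there, 5.31 log2 units above the stage 18 border (adjusted p = 0.000305), where its 3.86 and 3.54 averaged in the background, so that this difference and its fall are limited by that floor. Six3.L averaged 9.13, 5.10 above it (adjusted p = 8.32e-06). Crx.L was 2.26 above it (adjusted p = 4.77e-05), and otx2.S 2.53 above it (adjusted p = 0.00086). Between the stage 18 border and the anterior fold, 925 probe sets (5.97%) differed.

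Among genes of the midbrain, hindbrain and roof plate, every call was a rise. Of 15 measured, 3 were higher, 0 were lower and 12 did not pass, with a median of 0.22. More called genes are given next than these 3, so not all of them are called members of this list. The hindbrain Hox gene hoxa3.S was added after its values were seen. It read 3.89, 3.68 and 4.21 at stage 14 and 5.52 and 5.27 at stage 18, a rise of 1.46 ± 0.17 (adjusted p = 0.00204). Both copies of hoxa2, a gene of rhombomeres and the crest of the second branchial arch, were higher, hoxa2.L by 1.23 (adjusted p = 0.0329) and hoxa2.S by 0.83 (adjusted p = 0.00777), the latter from background to only 4.13 and 3.93. Across the Hox list, 2 of 21 measured genes passed, 12 lay in the background at both stages, and the median was -0.03. Wnt3a.S, a Wnt ligand of the dorsal neural tube, rose by 0.86 (adjusted p = 0.0167), and the Hox cofactor meis1.S by 0.53 (adjusted p = 0.023).

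These genes were low in the anterior fold. Hoxa2.L averaged 2.36 there, hoxa3.S 2.93 and wnt3a.S 3.71, all at or below the background level of 3.72. Among single arrays, hoxa2.L was lost without stage 14 replicate 2, stage 14 replicate 3 or stage 18 replicate 1 (adjusted p of 0.077, 0.102 and 0.186). Wnt3a.S was lost without stage 14 replicate 3 or stage 18 replicate 2 (0.0632 and 0.0902), and meis1.S without all but stage 14 replicate 2 (0.052 to 0.0999). The floor plate and notochord signal shh.L was called higher by 0.89 (adjusted p = 0.00364) but only moved from 2.89, 3.07 and 2.95 to 3.94 and 3.79, at the edge of background, while it averaged 6.35 in the anterior fold.

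**Figure D3:**
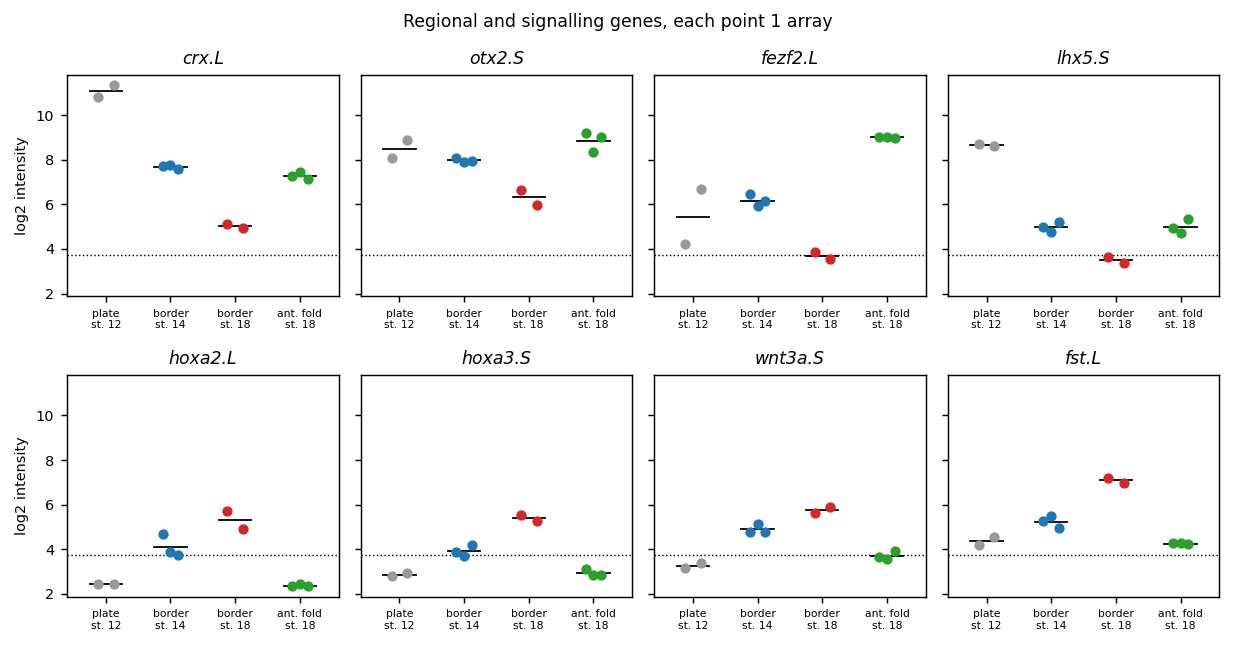
Log2 intensity (y axis) of 8 regional and signalling genes on each array of 4 groups, with black bars at group means and a dotted line at the background level of 3.72. Crx.L, otx2.S, fezf2.L and lhx5.S fell in the border between stages 14 and 18 and averaged higher in the anterior fold than in the stage 18 border, while hoxa2.L, hoxa3.S, wnt3a.S and fst.L rose in the border and averaged lower in the anterior fold.

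In the BMP and Wnt lists most genes did not pass, and the largest changes were in secreted proteins. Follistatin, fst.L, which binds activin and BMPs, read 5.27, 5.47 and 4.96 and then 7.21 and 6.96, with no overlap. It rose by 1.85 ± 0.17 (SE, adjusted p = 0.00115) and stood 2.83 log2 units above the anterior fold at stage 18 (adjusted p = 8.32e-06). Sfrp2.S, a secreted Wnt antagonist, read 7.76, 7.48 and 7.27 and then 8.98 and 8.96, a rise of 1.46 ± 0.16 (adjusted p = 0.00163). Wnt8a.L, the Wnt ligand of the early posterior and lateral embryo, fell from 7.70, 8.08 and 7.55 to 6.45 and 6.64, by 1.23 ± 0.16 (adjusted p = 0.00329). It was still 3.08 above its level in the anterior fold (adjusted p = 3.93e-06).

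Members of the bmp7 gene family went in opposite directions. Bmp7.1.L read 5.08, 5.40 and 5.64 and then 6.47 and 6.61, a rise of 1.16 (adjusted p = 0.00582). Bmp7.2.L read 5.64, 5.73 and 6.62 and then 4.05 and 4.16, a fall of 1.89 (adjusted p = 0.00432). Each change was free of overlap between the stages.

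Over each of these pathways as a whole most genes did not pass. Their counts are read against 3.75% higher and 3.72% lower over all genes. Of 44 BMP and activin genes, 2 were higher (fst.L and bmp7.1.L), 3 were lower and 39 did not pass, with a median of -0.10. The inhibitory smad6.L fell by 0.61 (adjusted p = 0.0207), a call lost without stage 18 replicate 1 (adjusted p = 0.112), and the BMP target ventx2.1.S fell by 1.00 (adjusted p = 0.0402), a call lost without any 1 of the 5 border arrays (up to 0.144). Of 47 Wnt genes, 3 were higher, 2 were lower and 42 did not pass, with a median of -0.05. Besides those above these were wnt11.S, up 0.58 (adjusted p = 0.0247), and the repressive factor tcf7l1.L, which fell by 0.72 (adjusted p = 0.0274). Wnt11.S was lost without stage 14 replicates 2 or 3 or stage 18 replicate 2 (up to 0.131), and tcf7l1.L without stage 14 replicate 3 or either stage 18 array (up to 0.128).

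In the other pathways, too, most genes did not pass. In the retinoic acid list, 2 of 15 genes were higher and 1 was lower. The receptor rara.L rose by 0.80 (adjusted p = 0.00658), from background to 3.89 and 3.90, and the retinoic acid-degrading enzyme cyp26a1.S fell by 0.71 (adjusted p = 0.00593). Cyp26a1.L changed by 0.16 (adjusted p = 0.77), and the difference between the copies passed in the main fit (0.87, L minus S, adjusted p = 0.0407). In the FGF list 1 of 17 genes passed, the immediate early factor egr1.L, up 1.95 (adjusted p = 0.0283), a call lost without stage 14 replicate 3 or either stage 18 array (up to 0.123). None of the 22 Notch genes passed in limma. The largest changes there were in hes5.1.L (1.21, adjusted p = 0.0636) and hes7.1.L (-0.98, adjusted p = 0.0707), which point in opposite directions.

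Among genes of neuronal differentiation, every call was a rise. Of 26 measured, 6 were higher and 20 did not pass, with a median of 0.32. The intermediate filament gene peripherin, prph.S, which in the frog embryo marks early sensory and motor neurons, had 1 of the largest rises of all. It read 3.96, 4.70 and 4.04 at stage 14 and 6.79 and 6.89 at stage 18, a rise of 2.61 ± 0.21 (adjusted p = 0.000917). It was 2.44 log2 units higher than in the anterior fold (adjusted p = 0.000108). In a separate list of 8 measured genes of dorsal sensory neurons, 0 were called, and the median change was -0.07.

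The 6 called members did not include prph.S. Its homeolog prph.L changed by 0.63 (adjusted p = 0.057), which did not pass. The neuron marker elavl3.L changed by 0.61 (adjusted p = 0.276), which did not pass although the stages did not overlap. Genes of vesicle release and neuronal tubulin were among the 6. Snap25.L, a synaptic vesicle fusion protein, rose by 0.77 (adjusted p = 0.00582) from background to 4.21 and 3.94. Its homeolog snap25.S averaged in the background at both stages and changed by 0.07 (adjusted p = 0.754). The difference between the snap25 copies passed in the main fit (0.70, L minus S, adjusted p = 0.0152). Tubb2b.S, a neural tubulin, rose by 0.98 (adjusted p = 0.00877), a call lost without stage 18 replicate 1 (adjusted p = 0.0504). Insm1.L, a zinc finger factor of newborn neurons, rose by 0.89 (adjusted p = 0.00926), a call lost without stage 18 replicate 2 (adjusted p = 0.0529).

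The calcium sensor of vesicle release, syt1.L, rose by 1.47 (adjusted p = 0.00817), again not without stage 18 replicate 2 (adjusted p = 0.0508). It read 9.13 in the animal cap, a tissue labelled as epidermis, which was above every border array, so in these arrays its level did not mark neural tissue alone. The other members called were tubb3.L, up 0.57 (adjusted p = 0.0232), and neurod4.L, up 0.55 (adjusted p = 0.0473), which lost their calls without several single border arrays (adjusted p up to 0.105 and 0.194). Of 24 pan-neural progenitor genes, 0 were higher and 1 was lower, otx2.S. The brightest sox2.L probe set changed by -0.31 (interval -0.77 to 0.15) and sox3.S by 0.19 (interval -0.21 to 0.60).

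Genes of the hatching gland, the cell row that later digests the egg membranes, gave the largest single change. Astl3a.1.L, an astacin-family metalloprotease, read 3.89, 4.36 and 3.62 at stage 14 and 8.89 and 8.97 at stage 18. The rise of 4.98 ± 0.38 (adjusted p = 0.000917) was 31.5-fold from a level near background, which limits how low the starting value could be read. In the anterior fold it averaged 8.31, not different from the stage 18 border by the test (0.62, adjusted p = 0.499). Xa-1.L, the other measured hatching gland gene, read 8.81, 8.88 and 8.04 and then 9.86 and 10.0, a rise of 1.36 (adjusted p = 0.0129), which was lost without stage 18 replicate 2 (adjusted p = 0.0627). Crisp1.5.S, a cysteine-rich secretory protein gene, had the second largest rise, from 6.69, 5.38 and 5.33 to 9.39 and 9.32, or 3.55 ± 0.38 (adjusted p = 0.00151).

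Among keratins and other epidermal structural genes, every call was a rise. Of 26 measured, 9 were higher, 0 were lower and 17 did not pass, and the median change was 0.49. Intelectin itln1.L, a secreted lectin of the larval skin, read 8.38, 9.94 and 9.59 at stage 14 and 12.09 and 12.34 at stage 18, a rise of 2.91 ± 0.42 (adjusted p = 0.00501). Desmoplakin dsp.L, which anchors keratin at desmosomes, read 6.03, 6.33 and 6.56 and then 7.72 and 7.62, a rise of 1.36 (adjusted p = 0.00582).

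Periplakin, ppl.L, and envoplakin, evpl.L, rose by 1.68 (adjusted p = 0.0272) and 1.54 (adjusted p = 0.0329), and the mucin-like otogl2.L by 2.08 (adjusted p = 0.0412). The embryonic keratin krt12.4 rose in both copies, krt12.4.L by 1.23 (adjusted p = 0.0221) and krt12.4.S by 1.27 (adjusted p = 0.0469). These 5 calls were lost without stage 14 replicate 3 (adjusted p of 0.0522 to 0.0803) or without stage 18 replicate 2 (0.121 to 0.233). Evpl.L was also lost without stage 14 replicate 1 (0.0548), and otogl2.L and krt12.4.S without stage 18 replicate 1 (0.105 and 0.0531). Stage 14 replicate 1 had the lowest mean level of the list, 6.61 against 7.05 and 7.02, and the stage 18 arrays had means of 7.39 and 7.73. Epidermal transcription factors gave 0 higher and 1 lower of 18, with a median of 0.03, and tp63.L changed by 0.97 (adjusted p = 0.121).

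Genes of multiciliated cells, scattered epidermal cells whose cilia later move fluid over the skin, had the highest median of any list with 10 or more measured genes, 0.58. Of 26 measured, 7 were higher, 0 were lower and 19 did not pass. The tektin gene tekt2.S, part of the ciliary axoneme, rose from background levels of 2.76, 3.00 and 2.95 to 4.09 and 4.96, by 1.62 ± 0.22 (adjusted p = 0.00391). Rsph1.L, a radial spoke protein, read 4.38, 4.40 and 4.38 and then 5.20 and 6.87, up 1.64 (adjusted p = 0.029). Tekt4.S, another tektin, read 4.76, 5.04 and 4.92 and then 5.43 and 6.78, up 1.19 (adjusted p = 0.047). The marker dnai1.L read 4.98, 5.29 and 4.87 and then 4.99 and 6.04, and did not pass (0.47, adjusted p = 0.343). Tekt2.L averaged in the background at both stages and did not pass (0.55, adjusted p = 0.185). The difference between the tekt2 copies passed in the main fit (-1.07, L minus S, adjusted p = 0.00328). Foxj1 was not measured.

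The ciliary signal was stronger on stage 18 replicate 2. The mean level of the list was 5.32 on that array and 4.59 on the other, against 4.26 to 4.50 at stage 14. Without stage 18 replicate 2 the calls of tekt4.S and spag6.L, a central pair protein up 1.00 (adjusted p = 0.0417), were lost (adjusted p of 0.1 and 0.151). They were also lost without any 1 of the stage 14 arrays (0.0674 to 0.121), as was that of rsph1.L (0.0571 to 0.0826). Ionocyte and small secretory cell genes gave 0 calls of 12 in limma. Foxi1.L, the regulator of ionocytes, read 3.95, 4.42 and 4.46 and then 4.42 and 6.06, again highest on replicate 2 (0.96, adjusted p = 0.234). The part of a larger share of epidermis in the stage 18 pieces in these changes was not tested, and more cells of a type and more RNA per cell cannot be told apart in bulk tissue.

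**Figure D4:**
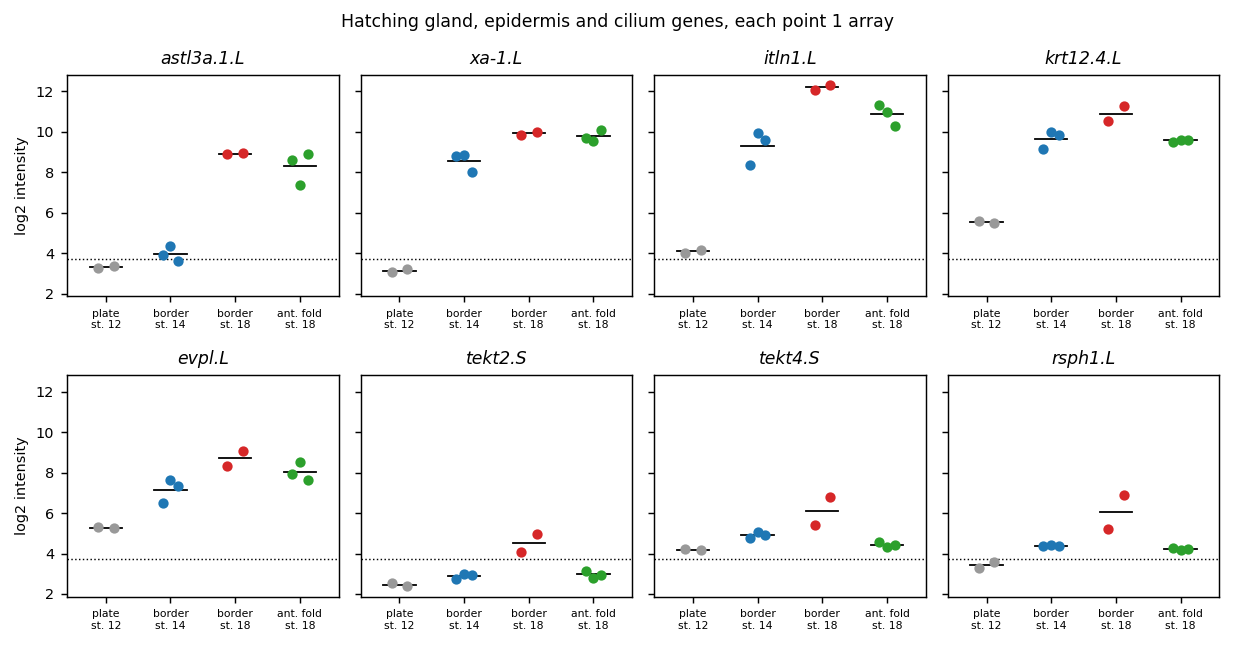
Log2 intensity (y axis) of 2 hatching gland genes, 3 epidermal genes and 3 cilium genes on each array of 4 groups, with black bars at group means and a dotted line at the background level of 3.72. All 8 were higher on both stage 18 border arrays than on any stage 14 border array, and the 3 cilium genes differed between the 2 stage 18 arrays.

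Most genes in the lists for tissues under or beside the border did not pass the test. In the muscle list 1 of 21 genes was higher, the myosin light chain mylpf.L, which read 4.02, 3.83 and 3.36 and then 5.93 and 4.43 (1.45, adjusted p = 0.0433), a call lost without any 1 border array except stage 18 replicate 2 (adjusted p up to 0.156). Of these genes, 14 lay in the background at both stages. The endoderm and blood lists gave 0 calls of 14 and of 18 in limma, with medians of -0.11 and -0.08. Placode genes gave 0 calls of 12, with a median of -0.05, and pigment cell genes 0 of 5. In the cement gland list, 1 of 6 measured genes was higher, 1 was lower and 4 did not pass, with a median of -0.14. The higher one, ag1.L, rose by 0.89 (adjusted p = 0.00866). It averaged 11.64 in the anterior fold against 10.38 and 10.39 on the stage 18 border arrays. Its homeolog ag1.S changed by -0.19 (adjusted p = 0.823). The cement gland markers agr2.L, agr2.S and pitx1.L changed by -1.29, -0.31 and -0.43, and none passed (adjusted p of 0.219, 0.495 and 0.291).

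Among genes inherited from the egg or active in the early ectoderm, every call was a fall. Of 33 measured maternal and early ectoderm genes, 0 were higher, 5 were lower and 28 did not pass, and the median change was -0.24. Dppa2.L, a gene of pluripotent cells in mammals, read 7.61, 8.07 and 7.64 at stage 14 and 6.06 and 6.42 at stage 18, a fall of 1.54 ± 0.25 (SE, adjusted p = 0.00781). Zar1.S, an oocyte RNA-binding protein, read 6.33, 5.96 and 5.86 and then 4.63 and 5.00, a fall of 1.24 (adjusted p = 0.00362).

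Pou5f3.1.L, a frog relative of Oct4, fell by 0.96 (adjusted p = 0.0421) and the Nodal co-receptor tdgf1.3.L by 0.87 (adjusted p = 0.0477). Both calls were lost without any 1 border array except stage 18 replicate 2 (adjusted p up to 0.233 and 0.264). The levels of dppa2.L and zar1.S were within 0.54 and 0.16 of the anterior fold at stage 18, differences that did not pass (adjusted p of 0.311 and 0.746).

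The 15 largest falls also included genes outside those lists. The histone H4 lysine methyltransferase gene kmt5a.S read 8.21, 7.53 and 7.80 and then 5.94 and 5.45, a fall of 2.15 ± 0.21 (adjusted p = 0.0014). Urod.L, an enzyme of heme synthesis, read 5.94, 6.10 and 5.80 and then 4.25 and 4.23, a fall of 1.71 ± 0.13 (adjusted p = 0.000917). Cnn2.S, a calponin that binds actin, fell from 9.82, 9.33 and 9.44 to 7.68 and 7.77, by 1.80 (adjusted p = 0.00166). Cnn2.L changed by -0.09 (adjusted p = 0.87), and the difference between the copies passed in the main fit (1.72, L minus S, adjusted p = 0.000834).

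The mitochondrial malate dehydrogenase gene fell in both copies, mdh2.L by 1.65 (adjusted p = 0.00615) and mdh2.S by 1.53 (adjusted p = 0.00356). Cdca9.S, a gene named for cell division, fell by 1.93 (adjusted p = 0.00285), and the serpin serpine2.L, an inhibitor of extracellular proteases, by 2.09 (adjusted p = 0.00424). Stage 18 levels of all 7 probe sets described here as falling differed from the anterior fold by less than the test could call (adjusted p of 0.0721 or more). The large fall of cox4i2.S, a cytochrome oxidase subunit gene, was not secure. Its levels were 9.04, 8.83 and 8.55 at stage 14 and 7.68 and 5.50 at stage 18 (-2.22, adjusted p = 0.0476). Without stage 18 replicate 2 the change was -1.13 and the call was lost. It was also lost without any 1 of the stage 14 arrays (adjusted p of 0.0917 to 0.101).

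Among genes of the cell cycle and DNA replication, every call was a fall. Of 68 measured, 0 were higher, 5 were lower and 63 did not pass, and the median change was -0.15. The DNA polymerase alpha subunit pola2.L read 7.82, 7.88 and 8.01 and then 6.95 and 6.64, a fall of 1.11 ± 0.13 (adjusted p = 0.00261). The mitotic cyclin ccnb2.S read 9.18, 8.90 and 9.05 and then 7.67 and 8.08, a fall of 1.17 (adjusted p = 0.00999).

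The mitotic phosphatase cdc25c.L fell by 0.69 (adjusted p = 0.0173), the origin recognition subunit orc3.S by 0.62 (adjusted p = 0.0274) and the G1 cyclin ccnd1.S by 0.50 (adjusted p = 0.0389). Ccnd1.L changed by -0.07 (adjusted p = 0.853), and the difference between the copies did not pass (adjusted p = 0.18). Ccnb2.S was lost without stage 18 replicate 1 (adjusted p = 0.0625), cdc25c.L without stage 14 replicate 3 or stage 18 replicate 1 (0.0631 and 0.0992), orc3.S without stage 14 replicate 3 or either stage 18 array (up to 0.136), and ccnd1.S without any 1 border array (up to 0.134). Ribosomal protein genes gave 0 higher and 1 lower of 62, with a median of 0.02, and housekeeping genes gave 0 calls of 11.

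The same probe sets were read in a comparison that shares no array with the border, the stage 18 anterior fold against the stage 12 neural plate, although both used the same estimate of each probe set's spread. Of the 585 probe sets higher in the older border, 351 (60.0%) were also higher in the anterior fold than in the plate and 43 were lower, against 23.4% of all probe sets higher. Of the 431 lower in the older border, 303 (70.3%) were also lower in the anterior fold and 35 were higher, against 24.2% of all probe sets lower. The anterior fold and the plate differ in tissue as well as in stage. The shares over all probe sets include the 28.5% that averaged in the background at both border stages.

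Xenopus laevis keeps homeologous copies of many genes, on its long (L) and short (S) chromosomes, and 1017 genes had a probe set for each. Over these pairs the changes of the copies correlated at r = 0.43 (Spearman 0.40), a description across genes that share the same arrays. The difference between the copies changed in 61 pairs (6.0%), in 39 toward L and in 22 toward S. In 15 of the 61, at least 1 copy lay in the background at both stages, beside 261 of all 1017 pairs. The count was 28 without stage 14 replicate 3 and 33 without stage 18 replicate 1.

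The widest divergence was in hpgds, a prostaglandin D synthase gene, where the S copy fell by 2.13 and the L copy changed by 0.35 (difference 2.47 ± 0.30, adjusted p = 0.00107). The fall of hpgds.S by itself was just lost without stage 18 replicate 2 (adjusted p = 0.0503). Prph was the reverse in direction, its S copy rising by 2.61 and its L copy changing by 0.63 (adjusted p = 0.057), with a difference of -1.97 ± 0.25 (adjusted p = 0.00107). For kmt5a the S copy fell and the L copy changed by -0.34 (difference 1.81 ± 0.21, adjusted p = 0.000946). For the crest factor ets1 the L copy rose while the S copy changed by 0.14 (difference 1.30 ± 0.24, adjusted p = 0.00818), which was lost without stage 18 replicate 1 (adjusted p = 0.0996). For the keratin gene krt19 neither copy passed alone, but the difference did (1.88 ± 0.35, adjusted p = 0.00833), except without stage 18 replicate 2 (adjusted p = 0.0678). For the protease gene xepsin the S copy lay in the background.

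Both copies passed the test in 14 pairs, 5 higher, 8 lower and 1 opposed. The opposed pair was snx31, a sorting nexin gene named here after its values were seen, with its L copy up 0.74 (adjusted p = 0.00926) and its S copy down at -1.01 (adjusted p = 0.0259). Single arrays decided both calls, with adjusted p up to 0.0555 and 0.105 without stage 18 replicate 1, and the S call was also lost without stage 14 replicates 2 or 3 or stage 18 replicate 2 (0.0539 to 0.0872). Crx, otx2, mdh2, ccnb2 and the nucleoplasmin gene npm3 fell in both copies, and krt12.4, mycn and hoxa2 rose in both. For mycn the S copy nevertheless rose more, with a difference of -1.13 ± 0.22 (adjusted p = 0.0119), a call lost without stage 14 replicate 3 or stage 18 replicate 2 (adjusted p of 0.0516 and 0.0686). Of the copies not described above, npm3.L, npm3.S and ccnb2.L lost their calls without stage 18 replicate 2 (0.0863, 0.0844 and 0.17) and mycn.L without stage 18 replicate 1 (0.248), and npm3.L, ccnb2.L and mycn.L also without other border arrays (0.0507 to 0.137).

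**Figure D5:**
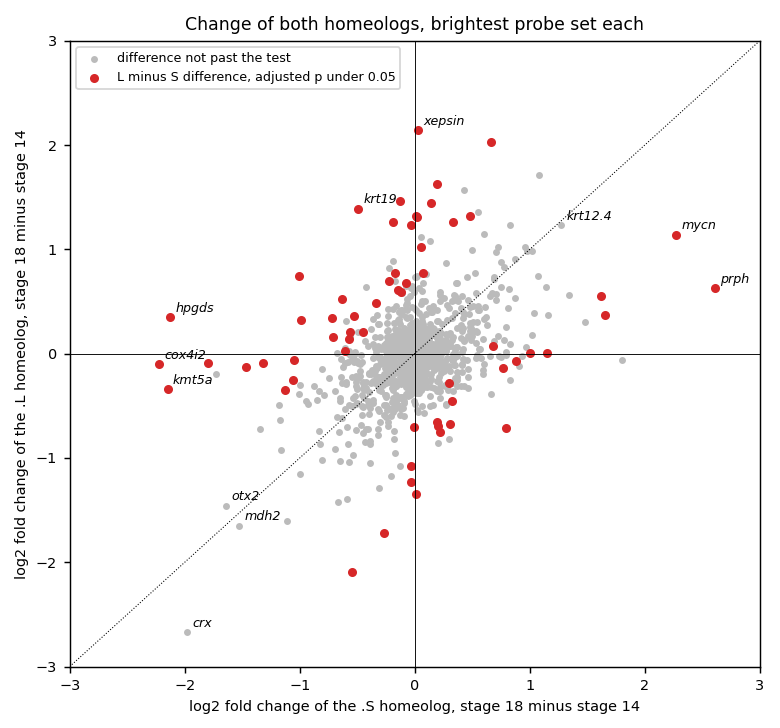
Log2 fold change of the L copy (y axis) against that of the S copy (x axis), stage 18 minus stage 14 border, for 1017 genes with a probe set for each. Red points are the 61 pairs whose L minus S difference passed an adjusted p of 0.05, and the dotted line marks equal change. Crx, otx2 and mdh2 lie near the line, and hpgds, kmt5a and prph lie far from it.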

How the data were processed

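RNA from hand-dissected tissue was hybridised to Affymetrix Xenopus laevis arrays, per the labels' protocols. The deposited values were taken as log2 intensities from their range (2.13 to 13.56). The submitters' processing notes name R 2.14.2, and the background correction, summary and normalization are not given in the sources used here. Array medians of 4.94 to 5.04 left no further scaling in the main fit.

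After 120 control probe sets were left out, 15491 were fitted with limma 3.58.1 in R 4.3.3. All 11 arrays entered with 1 mean per group and no covariate. The contrast was two-sided, with Benjamini-Hochberg adjustment over all probe sets and a threshold of 0.05. The spread had 6 residual and 3.75 prior degrees of freedom, and the number of arrays limits its precision. Intervals are 95% intervals from this model. The background level of 3.72 is the 95th percentile of 17 tag controls.

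The 9304 probe sets with exactly 1 symbol were named, and 195 with several symbols and 5992 with none were not. A gene in a list was represented by its brightest probe set. Homeolog pairs were tested as the L minus S difference of log2 values. The fits were also run on simulated data with independent noise for each value, which cannot show how far the calls rest on single arrays.

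Named genes were the 15 largest rises and 15 largest falls past the threshold without overlap, up to 4 called members per list (otherwise the 2 with the largest change), cell type markers, the 6 most divergent homeolog pairs and up to 8 genes with both copies called. Fst.L, slit1.S, cxcr4, foxd3, snai1.S, tfap2b.L, hoxa3.S and the members that complete a list's count were added after their values were seen. The groups compared and all lists were chosen with earlier results of these data known. Alternatives were quantile normalization, median centring, eBayes with trend and robust settings, array weights, a filter on dim probe sets, the 5 border arrays alone, a replicate block, averaging all probe sets that name a gene and leaving out each array in turn. Replicate numbers were not taken as pairs in the main fit, since only 2 numbers are shared and the labels name no clutch. Same-numbered deviations from the group means correlated at 0.163 and 0.094. These values cannot decide the pairing, since the deviations of 2 stage 18 arrays mirror each other. RNA quality was read from the 3′ minus 5′ probe sets of actin, -3.08 to -2.75 at stage 14 and -2.96 and -2.78 at stage 18, and of Gapd, of the opposite sign, 2.08 to 2.55 at stage 14 and 2.29 and 2.45 at stage 18. The 1 lower member of the adhesion, guidance and migration list is not reported here.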

Additional observations from a re-analysis of the deposited data

How the results depend on the processing

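With all alternatives but those named here, the number of probe sets called stayed within 1.5 times 1016, and no gene named in the text reversed its direction. Fitting only the 5 border arrays gave 233 probe sets (157 at least 2-fold), 26 homeolog pairs and 31 genes of the lists, against 1016, 358, 61 and 79; 224 of the 233 were among the 1016. Fewer residual degrees of freedom enter that fit. With the replicate number as a block, 620 probe sets were called, 580 of them shared, and the cause was not tested. Leaving out 1 array at a time gave 458 to 859 probe sets (252 to 425 at least 2-fold), 28 to 62 homeolog pairs and 42 to 70 list genes. The lowest of the probe set, pair and list counts came without stage 14 replicate 3. Of 123 called probe sets followed through all 17 settings, 41 kept their call in every one. These include sox10.L, mycn.S, fst.L, cxcr4.S, crx.L, zic4.L, prph.S and astl3a.1.L. With 2 arrays against 3, low intensities near background limit how small a starting level could be read.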

Other observations

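Some genes known for regulated secretion are given here because their values were seen to be high, with no list and no test of the group. The synaptotagmin-like gene sytl1.S, whose relatives tether secretory granules in mammals, read 3.52, 4.01 and 3.88 at stage 14 and 5.71 and 6.05 at stage 18, a rise of 2.08 ± 0.22 (adjusted p = 0.00151). Sytl2.S rose by 1.87 (adjusted p = 0.00615) and the granule GTPase rab27a.L by 1.71 (adjusted p = 0.0144), the latter not without stage 18 replicate 2 (adjusted p = 0.0807). Rab27a.S changed by 1.08 (adjusted p = 0.0506), and sytl5.L lay in the background. The calcium-dependent membrane binding annexins anxa2.L and anxa9.L rose by 2.03 (adjusted p = 0.0157) and 1.55 (adjusted p = 0.00438), with anxa2.L lost without stage 14 replicate 3 or stage 18 replicate 2 (0.0556 and 0.0874). Anxa2.S changed by 0.66 (adjusted p = 0.216), and the difference between the copies passed in the main fit (1.37, L minus S, adjusted p = 0.00724).

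Of 4 enzymes of histidine breakdown, also picked after their values were seen, 2 passed the test. Amdhd1.L, the imidazolonepropionase, read 5.59, 5.40 and 5.31 and then 4.18 and 4.56, a fall of 1.06 (adjusted p = 0.00377). The histidine ammonia lyase hal.1.L fell by 2.02 (adjusted p = 0.0189), but not without stage 14 replicate 3 or stage 18 replicate 1 (0.0674 and 0.073). The urocanase uroc1.L changed by -0.66 (adjusted p = 0.143) and ftcd.L, the last enzyme of the pathway, by -0.29 (adjusted p = 0.48). The prostaglandin synthesis gene ptgs2.S fell from 9.76, 9.37 and 9.79 to 8.13 and 8.49, by 1.32 (adjusted p = 0.00757). The calcium pump gene atp2a3.L, at 5.63, 6.62 and 6.23 and then 8.07 and 8.63, rose by 2.19 (adjusted p = 0.00324).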
